A study of Mus musculus with 12 samples.

Results

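The genes described here encode the proteins of the cytosolic ribosome in the mouse hypothalamus. They are the lines of the gene table whose symbol has the form of a ribosomal protein name (Rpl or Rps with a number, the stalk proteins Rplp0, Rplp1 and Rplp2, and Rpsa), with pseudogene and duplicate lines left out. The rule found 83 of the 24020 genes, 51 of the large (60S) and 32 of the small (40S) subunit. The hypothalamus of individual mice was sequenced in 3 groups of the strain Wfs1tm1Koks, each with 4 libraries: wild-type, heterozygous and homozygous for a targeted mutation of Wfs1. The product of Wfs1 is wolframin, which spans the endoplasmic reticulum membrane, and the mutation is carried in the germline, so every cell type of the tissue shares the genotype. The labels used here give no treatment, age or sex.

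The ribosome reads messenger RNA and makes protein. The small subunit holds the mRNA and checks the pairing of codon and tRNA, and the large subunit joins the amino acids. Each ribosome needs the ribosomal proteins in nearly equal numbers, and their mRNAs belong to the most abundant of most cells. Many begin with a run of pyrimidines, the 5′ terminal oligopyrimidine (TOP) tract, through which the mTOR kinase controls their translation. Over evolution the same mRNAs were often copied back into the genome, which has left many processed pseudogenes that resemble them. A proportion of ribosomal protein genes also host small nucleolar RNAs in their introns.

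Library totals ran from 979394 to 2330872 counts. Wfs1, the mutated gene, stood at 114 to 167 CPM (counts scaled to library size with TMM factors) in the wild-type, 81.8 to 103 in the heterozygous and 14.8 to 20.1 in the homozygous libraries, so the groups did not overlap. Markers of hypothalamic neurons summed to 1008 to 1631 CPM over the 12 libraries. Of 6 pituitary hormone genes, Gh and Prl had no count in any library. The 6 summed to 1.46 to 4.76 CPM in the wild-type, 2.09 to 2.63 in the heterozygous and 1.13 to 9.89 in the homozygous libraries. The 1 homozygous library without a label of its own number is called homozygous replicate 5. The labels name individuals but no litter or batch, and p-values measure the spread between these libraries. In bulk tissue, fewer cells of a type and less RNA per cell cannot be told apart.

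The 83 genes together held 21529 of 18198073 counts, or 0.118%. Their counts were concentrated in a few genes. Rpl4, a large subunit protein that lines the exit tunnel, alone held 29.9% of them, and 6 genes (Rpl4, Rpl15, Rpl8, Rps3 and Rps15a among them) held 65.0%. The median gene had 40 counts over all 12 libraries, and 49 never passed 10 counts in a library. A test between genotypes needs enough counts, and the filter on low counts left 26 of the 83 genes (17 of the 60S and 9 of the 40S subunit). These 26 held 93.3% of the counts of the set.

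The other 57 genes were too low to test. No count was found for 5 of them, Rpl10l, Rpl28, Rpl36, Rpl39l and Rpl3l, which allows a level of up to 0.165 CPM over the 12 libraries (3 counts, counting error only). Another 21 had 1 to 11 counts in all: Rpl10, Rpl10a, Rpl11, Rpl12, Rpl17, Rpl19, Rpl23a, Rpl24, Rpl27, Rpl29, Rpl34, Rpl9, Rps12, Rps13, Rps16, Rps2, Rps23, Rps27a, Rps28, Rps3a and Rps7. The remaining 31 had 12 to 92 counts, among them Rpl13, Rpl14, Rpl18, Rpl21, Rpl22l1, Rpl26, Rpl3, Rpl30, Rpl35, Rpl35a, Rpl36a, Rpl38, Rpl39, Rpl41, Rpl7, Rpl7a, Rplp0, Rps10, Rps14, Rps18, Rps19, Rps20, Rps26, Rps27, Rps27l, Rps29, Rps4x, Rps6 and Rpsa. Several are proteins that every ribosome carries. Rps6, the small subunit protein phosphorylated by S6 kinases, had 49 counts, Rpsa 36 and Rplp0, the base of the stalk that recruits elongation factors, 35. Rps27a, made as a fusion to ubiquitin, had 5, and Rpl11, which with Rpl5 and 5S rRNA forms the particle that binds MDM2, had 6. Rps19 and Rpl35a, both mutated in Diamond-Blackfan anaemia, had 22 and 67. The pseudogene line Rps19-ps3, left out of the set, held 27. These counts were set beside how far each transcript can be told from other genes.

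The forward reads were 75 bases long. Every run of 75 bases in the principal transcript of each gene (GENCODE M21, mouse build GRCm38) was looked up on both strands in the transcripts of all other genes. A gene elsewhere in the genome held a median of 36.3% of these windows (range 0% to 98.5%). At least 1 window was shared with a processed pseudogene in 78 of the 83 genes. Among equally ranked transcripts of a gene the longest was taken, and lengths ran from 345 to 5179 bases (median 886). Shared percentages, levels per kilobase and GC content depend on that choice. The first 75 coding bases are printed for the 4 genes called between genotypes below and for Rpl4, Rps3 and Rpl7a, with the start codon in capitals, since they differ in whether another gene holds them.
Rpl4 (chr9:64173375-64178666, plus strand): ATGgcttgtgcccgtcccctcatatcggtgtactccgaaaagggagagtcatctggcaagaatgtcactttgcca
Rps3 (chr7:99477896-99483738, minus strand): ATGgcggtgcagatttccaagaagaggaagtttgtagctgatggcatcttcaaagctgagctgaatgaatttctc
Rps21 (chr2:180257377-180258445, plus strand): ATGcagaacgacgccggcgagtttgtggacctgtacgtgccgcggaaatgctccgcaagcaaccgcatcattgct
Rpl15 (chr14:18267823-18271391, minus strand): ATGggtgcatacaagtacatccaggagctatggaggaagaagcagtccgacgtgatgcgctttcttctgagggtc
Rpl27a (chr7:109519147-109522367, plus strand): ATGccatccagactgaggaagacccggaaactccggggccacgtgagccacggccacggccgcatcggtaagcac
Rpl5 (chr5:107900502-107909005, plus strand): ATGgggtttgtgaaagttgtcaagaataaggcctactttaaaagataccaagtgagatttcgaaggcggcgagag
Rpl7a (chr2:26910764-26913318, plus strand): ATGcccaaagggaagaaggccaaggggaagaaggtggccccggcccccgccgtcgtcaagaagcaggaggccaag
The bases of Rpl4, Rps3 and Rps21 are in 0 other genes. Those of Rpl15 are in 4 other genes, those of Rpl27a in 3, those of Rpl5 in 1 and those of Rpl7a in 6, all of them processed pseudogenes. A read from these stretches cannot be placed by its own sequence.

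The level per length was lower in the classes with more shared sequence. Of the 15 genes with under 10% of their windows in a gene elsewhere, 10 were tested, and their median level was 12.9 CPM per kilobase of transcript. Of the 40 genes with 10% to 50%, 15 were tested, with a median of 5.21 CPM per kilobase. Of the 28 genes with 50% or more, 1 was tested (Rpl6), and the median was 0.531 CPM per kilobase. Spearman's rho between the shared percentage and the level was -0.46 over the 83 genes, which come from the same libraries and annotation, and -0.63 over the 80 left without Rpl3l, Rpl10l and Rpl39l. These classes leave out windows shared with overlapping genes. With those windows counted too, rho was -0.40 over the 83 genes. Against transcript length rho was 0.10. The counts over the 12 libraries were also divided by the windows that no other gene holds, overlapping genes included. Per kilobase of such window starts, the classes had medians of 251, 159 and 42.1 counts, from least to most shared. The classes kept their order, and the ratio of the highest to the lowest median was smaller than for the level per length. How much of the lower level comes from reads lost to shared sequence was not tested.

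**Figure D1:**
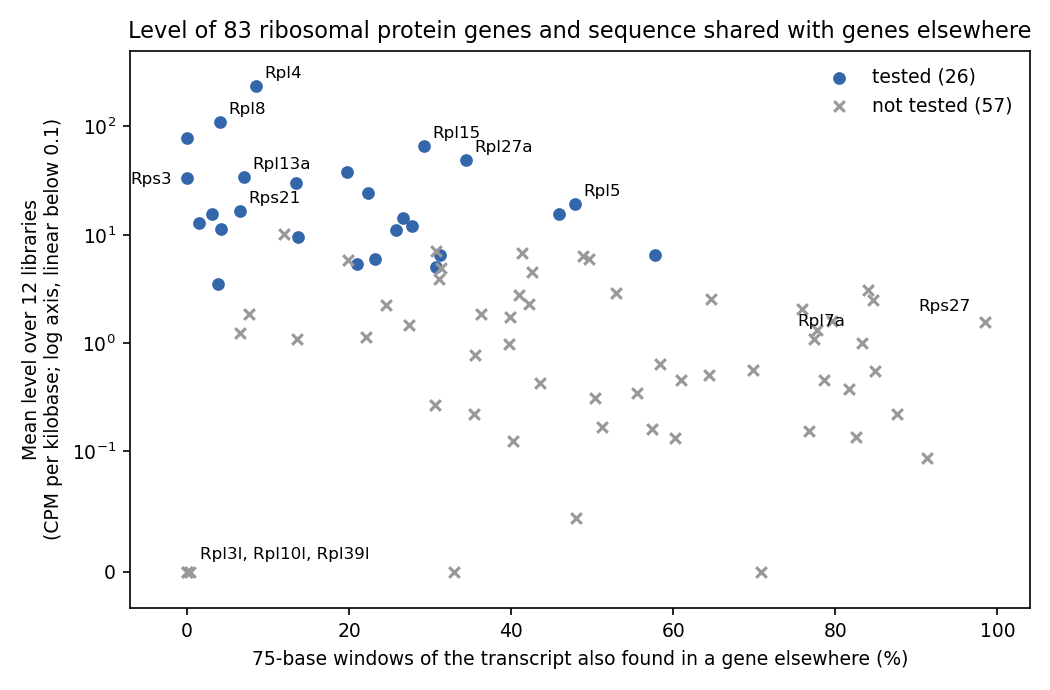
Mean level over the 12 libraries (CPM per kilobase of transcript, log axis that is linear below 0.1) against the percentage of 75-base windows also found in a gene elsewhere, 1 point per gene. Of the 28 genes at 50% or more on the horizontal axis, 1 is filled as tested, and the 3 paralogs Rpl3l, Rpl10l and Rpl39l sit at 0 on the vertical axis with 0.316% or less of their windows shared.

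Per length, the highest levels included Rpl4 at 236 CPM per kilobase, Rpl8 at 109, Rpl15 at 65.7, Rpl27a at 48.9 and Rps15 at 38.2. Rps3 shares no window with any other gene, and Rpl8 and Rpl4 share 4.02% and 8.47%. The lowest tested genes included Rpl7l1 at 3.50, Rps25 at 5.37, Rplp2 at 5.93, Rpl6 at 6.52 and Rpl31 at 6.56 CPM per kilobase. Across the 26 tested genes the level per length thus spanned from 3.50 to 236. Rps27, with 98.5% of its windows elsewhere, had 12 counts, and Rpl7a, which shares windows with 64 processed pseudogenes, had 21.

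Some members are paralogs that replace another in particular tissues. Rpl3l is known from heart and skeletal muscle and Rpl10l and Rpl39l from testis. All 3 had 0 counts here, with almost no shared windows, while Rpl3 had 23, Rpl10 9 and Rpl39 21 counts. Rps27l, a target of p53, had 92 counts against 12 for Rps27, whose sequence is nearly all shared. Rpl22l1 had 63 counts and Rpl22 490, and Rpl7l1 had 169 against 58 for Rpl7. Rps3, which is no paralog of Rps3a despite the name, had 1152 counts and Rps3a 2. Rps4x had 52 counts. Shared windows differ within most of these pairs (Rpl22 1.42%, Rpl22l1 49.6%), so the counts do not order the 2 mRNAs of a pair.

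The genotypes were first compared on the share of all counts that fell on the 83 genes. In the wild-type libraries it was 0.114%, 0.0954%, 0.123% and 0.120% (replicates 1, 2, 3 and 5), in the heterozygous ones 0.119%, 0.121%, 0.123% and 0.124%, and in the homozygous ones 0.118%, 0.112%, 0.116% and 0.137% (replicates 1, 2, 4 and 5). The 3 groups overlapped, and wild-type replicate 2 was the lowest and homozygous replicate 5 the highest library. The means were 0.113% ± 0.0124, 0.121% ± 0.00201 and 0.121% ± 0.0112 (SD, n = 4 each). In homozygous replicate 5, Rpl4 took 37.1% of the set's counts (Wilson 95% interval 34.6% to 39.7%), against 26.1% to 33.6% in the other 11 libraries.

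The 57 untested genes followed another order. Their share was 0.00524% to 0.0109% in the wild-type, 0.00892% to 0.0101% in the heterozygous and 0.00467% to 0.00706% in the homozygous libraries, with means of 0.00785% ± 0.00263, 0.00948% ± 0.000486 and 0.00617% ± 0.00104 (SD, n = 4 each). All 4 homozygous libraries lay below all 4 heterozygous ones, and the wild-type libraries spread over both. These shares rest on 54 to 224 counts per library and were not tested.

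**Figure D2:**
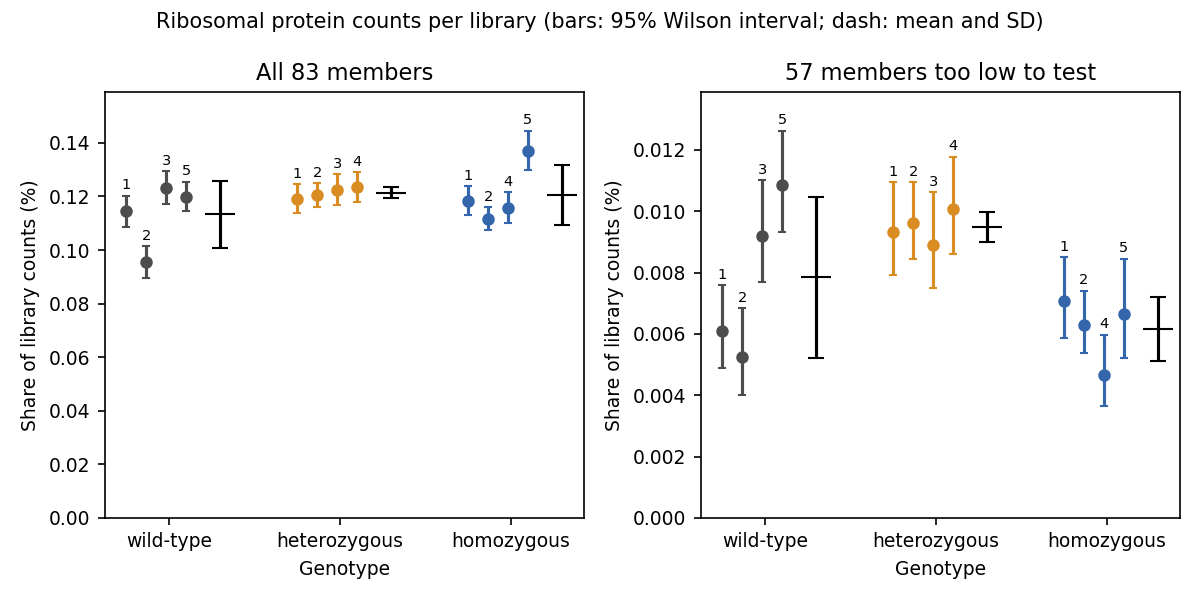
Share of a library's counts in all 83 ribosomal protein genes (left) and in the 57 too low to test (right), in percent, for each library by genotype, numbered by replicate. Points carry 95% Wilson intervals, which cover counting error only, and dashes give the mean and SD of 4 libraries: on the left the groups overlap, and on the right the homozygous points (0.00467% to 0.00706%) lie under the heterozygous ones (0.00892% to 0.0101%).

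Between homozygous and wild-type mice, 3 genes of the large subunit rose and 1 of the small subunit fell. Rpl15, a core protein of the large subunit, rose 2.41-fold, and Rpl5, which carries 5S rRNA into the subunit, rose 2.32-fold. Rpl27a, another protein of the large subunit, rose 1.94-fold, and Rps21, on the solvent side of the small subunit, fell 2.73-fold. These 4 of 26 tested genes are 15.4%, while 25.4% of all 10737 genes tested were called (edgeR quasi-likelihood test, with p adjusted by Benjamini-Hochberg across the transcriptome and a threshold of 0.05). The share of the set lay under that background, and the difference was not tested. The median standard error of the log2 fold change was 0.291 for the 26 genes and 0.215 for all genes tested.

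Rpl15 measured 92.4, 79.0, 61.9 and 82.1 CPM in wild-type libraries, 102, 85.9, 133 and 109.6 in the heterozygous ones and 143, 145, 208 and 274 in the homozygous ones. Every homozygous library lay above every other library, with replicates 4 and 5 highest. The log2 fold change against wild-type was 1.27 (SE 0.191, adjusted p = 7.05e-05). Rpl15 was also the 1 gene of the set called between homozygous and heterozygous mice, at 0.83 (SE 0.184, adjusted p = 0.0257), where 2.2% of all genes tested were called. That second call is lost when any 1 of heterozygous replicates 1, 2 and 4 or homozygous replicates 4 and 5 is left out.

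Rpl5 measured 36.7, 30.4, 13.8 and 16.8 CPM in wild-type, 34.7, 25.4, 46.9 and 38.1 in heterozygous and 38.9, 52.98, 75.8 and 57.6 in the homozygous libraries. The homozygous and wild-type libraries did not overlap, with 38.9 and 36.7 as the nearest values, and the heterozygous libraries overlapped both. The log2 fold change against wild-type was 1.21 (SE 0.266, adjusted p = 0.00212). Of the 75-base windows of Rpl5, 47.9% are in a gene elsewhere and 44.6% in Fam69a, a gene that overlaps it on chromosome 5. Fam69a rose as well, from 41.1 ± 10.98 to 72.9 ± 24.6 CPM (SD, n = 4 each), a log2 fold change of 0.82 (SE 0.223, adjusted p = 0.00954). No source used here states the strand of the counts, so reads of the 2 genes from that stretch cannot be told apart.

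For Rpl27a the values were 48.4, 36.2, 28.4 and 37.9 CPM in wild-type, 58.5, 46.3, 58.6 and 65.0 in heterozygous and 61.0, 54.3, 93.1 and 91.4 in the homozygous libraries. The homozygous libraries lay above the wild-type ones, replicates 4 and 5 again highest. The log2 fold change was 0.96 (SE 0.203, adjusted p = 0.0016). The sequence of Rpl15 and Rpl27a is partly shared too, at 29.3% and 34.4% of windows elsewhere, with 17 and 11 processed pseudogenes.

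Rps21 measured 7.33, 6.66, 10.2 and 13.1 CPM in wild-type libraries, 5.14, 9.18, 6.59 and 6.56 in heterozygous ones and 2.68, 3.59, 4.94 and 2.26 in the homozygous ones. Every homozygous library lay below every other library. The log2 fold change was -1.45 (SE 0.387, adjusted p = 0.00849), and it rests on 7 to 21 counts per wild-type and 2 to 8 per homozygous library. Rps21 has the shortest transcript of the 26 tested genes, 394 bases.

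**Figure D3:**
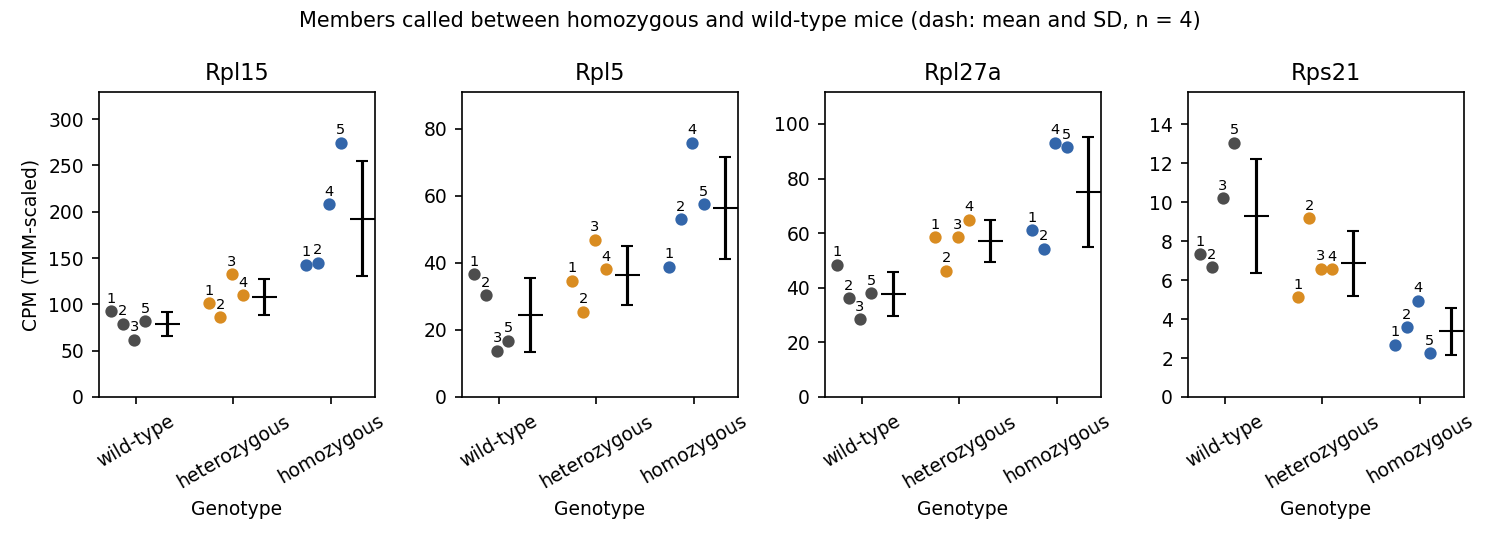
TMM-scaled CPM of Rpl15, Rpl5, Rpl27a and Rps21 in each library by genotype, numbered by replicate, with the mean and SD of 4 libraries as a dash. The homozygous points of Rpl15 (143 to 274) lie above and those of Rps21 (2.26 to 4.94) below all other libraries, and homozygous replicates 4 and 5 are the 2 highest for Rpl15.

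The other 22 tested genes were not called. The most positive of them were Rpl37 at 0.60 (SE 0.384, adjusted p = 0.261), Rpl32 at 0.44 (SE 0.291, adjusted p = 0.28) and Rpl6 at 0.43 (SE 0.33, adjusted p = 0.354). The most negative included Rps15 at -0.65 (SE 0.292, adjusted p = 0.107) and Rpl7l1 at -0.32 (SE 0.345, adjusted p = 0.531). Rps15 sits in the head of the small subunit. Wild-type libraries held 13.2, 18.1, 35.0 and 23.6 CPM of Rps15 and homozygous ones 18.1, 18.4, 9.89 and 7.90, and the groups overlapped.

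Rpl4, the most abundant of the set, measured 354, 314, 345 and 316 CPM in wild-type, 329.7, 352, 346 and 326 in heterozygous and 362, 358, 397 and 562 in the homozygous libraries. The homozygous libraries lay above the wild-type ones, with replicate 5 far above the other 3. The log2 fold change of 0.33 (SE 0.129) had an adjusted p of 0.0644 and was not called. Rpl8, a large subunit protein near the catalytic centre, was next in abundance per length and ranged from 89.4 to 144 CPM in the wild-type and from 93.2 to 112 in the homozygous libraries. Its log2 fold change was -0.17 (SE 0.142, adjusted p = 0.413).

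**Figure D4:**
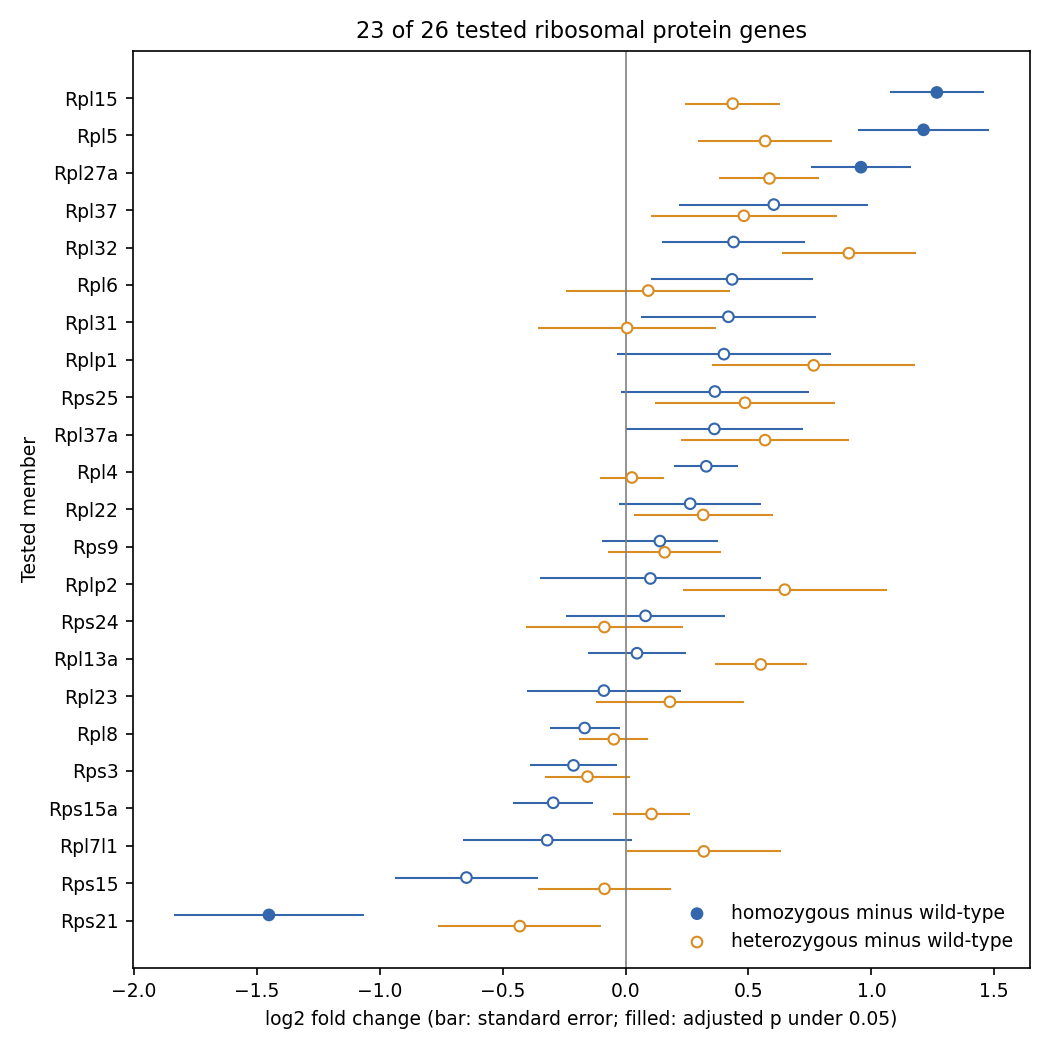
Log2 fold change of 23 of the 26 tested ribosomal protein genes against wild-type, for homozygous (blue) and heterozygous (orange) mice, with the standard error as a bar and filled points for an adjusted p under 0.05. The filled points are the homozygous values of Rpl15 (1.27), Rpl5 (1.21), Rpl27a (0.96) and Rps21 (-1.45); both sets of values share the wild-type libraries.

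The median change of homozygous against wild-type mice, on the log2 scale, was 0.12 over the 26 tested genes and -0.03 over all genes tested, and 19 of the 26 (73.1%) lay within 0.5 of 0, against 66.8% of all genes. The median of the set moved with single libraries: it was 0.04 without wild-type replicate 1 or 2, 0.31 without wild-type replicate 5 and 0.0028 without homozygous replicate 1, and with no filter on low counts (78 members) it was -0.04. The 17 tested genes of the large subunit had a median of 0.36 (13 above 0, 4 below) and the 9 of the small subunit a median of -0.29 (3 above 0, 6 below). Members that were called numbered 3 of 17 and 1 of 9. The 2 subunits also differ in base composition, with a median GC content of 49.2% for the tested large subunit transcripts and 52.5% for the small subunit ones. The part of composition in this split was not tested.

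Base composition moved with the change over the whole transcriptome in this comparison. Over 3 classes of genes of equal number, the class of lowest GC content (up to 46.8%) had a median log2 fold change of 0.23, the middle class -0.02 and the class of highest GC content -0.34. In the lowest class 25.6% were called higher and 2.21% lower, and in the highest class 3.77% and 23.6%. Rpl5 (42.7%) and Rpl15 (43.2%) have the lowest GC content of the 26 tested genes, Rpl27a has 48.5% and Rps21 52.5%. With an offset for GC content and length in the fit, the same 4 genes were called, Rpl15 at 0.98, Rpl5 at 0.95, Rpl27a at 0.84 and Rps21 at -1.43.

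**Figure D5:**
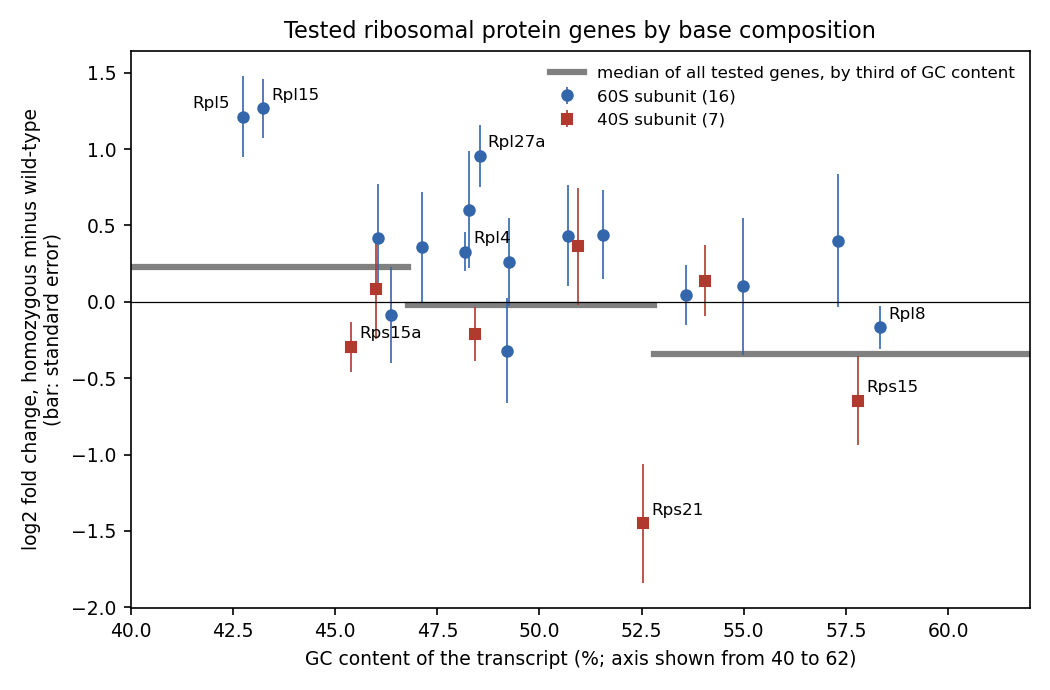
Log2 fold change of homozygous against wild-type mice, with its standard error, against the GC content of the transcript for 23 of the 26 tested genes of the large (circles) and small (squares) subunit. Grey lines give the median of all tested genes in each of 3 equal classes of GC content (0.23, -0.02 and -0.34). Rpl15, Rpl5, Rpl27a and Rps21, picked because they were called in this same comparison, lie farther from 0 than the line of their class.

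Heterozygous mice showed no called gene of the set. None of the 26 passed the edgeR test against wild-type, where 0.596% of all genes were called, and 5 (19.2%) had an unadjusted p under 0.05, against 14.2% of all genes. DESeq2 gave an adjusted p for 9 of the 26 and called 0 of them. The median log2 fold change was 0.17 against -0.01 for all genes tested. It was 0.28 to 0.29 when any 1 of wild-type replicates 1, 3 and 5 or heterozygous replicate 2 was left out, and 0.11 with the offset for GC content and length. Rpl32, a large subunit protein, had the smallest p, with 9.53, 4.76, 12.4 and 11.8 CPM in the wild-type and 18.6, 14.2, 21.2 and 21.7 in the heterozygous libraries. Its groups did not overlap, and its log2 fold change was 0.91 (SE 0.273, adjusted p = 0.121). Rpl13a, which can leave the ribosome to silence inflammatory mRNAs, stood at 28.4 to 34.5 CPM in the wild-type and at 39.6 to 50.1 in the heterozygous libraries, a log2 fold change of 0.55 (SE 0.187, adjusted p = 0.173). In the homozygous libraries Rpl13a stood at 24.2 to 40.9 CPM, overlapping both. Gm45713, a gene that overlaps Rpl13a, holds 56.3% of its 75-base windows. For the 4 genes called in homozygous mice, the heterozygous values against wild-type were 0.44 for Rpl15, 0.57 for Rpl5, 0.59 for Rpl27a (adjusted p = 0.183) and -0.43 for Rps21. Both sets of values share the wild-type libraries.

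The stalk of the large subunit recruits the elongation factors. Rplp1 ranged from 0.951 to 8.74 CPM in the wild-type, from 6.43 to 14.6 in the heterozygous and from 4.52 to 10.1 in the homozygous libraries, with log2 fold changes against wild-type of 0.77 (SE 0.413) and 0.40 (SE 0.437). Rplp2 ranged from 2.20 to 8.02, from 5.84 to 9.52 and from 1.13 to 7.18 CPM, with 0.65 (SE 0.415) and 0.10 (SE 0.448). Neither gene passed the test in any pair of genotypes. The pseudogene line Rplp2-ps1, left out of the set, held 144 counts over the 12 libraries, against 108 for Rplp2. How many of those 144 came from Rplp2 mRNA was not tested.

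The start of the gene carries the TOP tract. In RefSeq promoters (GRCm38.p6), 63 of the 83 genes had an entry by symbol. A tract was counted where a C was followed by at least 4 further bases that are each C or T, on the strand of the gene only. Where several C fit, the one nearest the annotated start was taken, and C or T bases before it were not counted. The annotated start was itself a C that met the rule in 13 of the 63 genes (20.6%) and in 3.01% of all 27025 genes with an entry. Such a C lay within 10 bases of the start in 61.9% against 34.4%. The windows of the 4 called genes differ in the tract. They are printed from 30 bases before the start to the 30th base from it. A tract counted from a C within 10 bases of the start is in capitals. RefSeq gives Rps21 a second promoter, whose start has no tract within 10 bases and which is not printed.
Rpl15 (chr14:18270957-18271016, minus strand): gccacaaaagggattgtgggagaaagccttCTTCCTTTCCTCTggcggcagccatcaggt
Rpl27a (chr7:109519165-109519224, plus strand): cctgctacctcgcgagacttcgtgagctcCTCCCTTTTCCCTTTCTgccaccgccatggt
Rps21 (chr2:180257349-180257408, plus strand): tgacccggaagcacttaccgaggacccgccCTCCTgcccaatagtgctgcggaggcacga
Rpl5 (chr5:107900498-107900557, plus strand): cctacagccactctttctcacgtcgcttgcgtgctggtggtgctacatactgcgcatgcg
Counted from the C nearest the start, the tract has 13 bases in Rpl15, 17 in Rpl27a and 5 in Rps21 at the printed start. In each of these windows C or T bases also lie directly before the capitals, so the unbroken run is longer. In the Rpl5 window no tract begins within 10 bases of the start, and a run that meets the letters of the rule lies farther upstream. The genes that rose therefore include Rpl15 and Rpl27a, whose annotated starts lie within a long run of C and T. Rpl5 has no tract within 10 bases of the start. A match is a description of the letters in this window.

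Other transcripts with a TOP tract include translation factors and hosts of small nucleolar RNAs. Between homozygous and wild-type mice, 4 of 15 tested genes of that list rose and 1 fell, with a median log2 fold change of 0.19. Over all genes tested, 13.7% rose and 11.6% fell. Gas5, a TOP transcript that hosts small nucleolar RNAs, rose by 1.15 (adjusted p = 0.000647), and Snhg1, another such host, by 0.96 (adjusted p = 0.0108). Nap1l1, a histone chaperone, rose by 0.61. Of 2 subunits of the initiation factor eIF3, Eif3f rose by 0.48 and Eif3h fell by 0.91 (adjusted p = 0.000986). The list was drawn up with earlier results of these data known, as were those that follow.

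Assembly factors build the subunits in the nucleolus and export them. Of 40 tested assembly genes, 10 rose and 3 fell between homozygous and wild-type mice, with a median of 0.08. Of all genes tested, 13.7% rose and 11.6% fell. Npm1, nucleophosmin of the nucleolus, averaged 129 ± 27.0, 354 ± 107 and 728 ± 182 CPM in the wild-type, heterozygous and homozygous libraries (SD, n = 4 each), a log2 fold change of 2.49 for homozygous against wild-type (adjusted p = 5.8e-08). Ncl, nucleolin, rose by 0.98, Dkc1, the pseudouridine synthase of box H/ACA particles, by 1.12 and Sbds, which helps to release the last factor from the large subunit, by 0.77. In heterozygous mice 2 of the 40 rose, Npm1 by 1.45 and Ncl by 0.74, where 0.512% of all genes tested rose.

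For the synthesis of ribosomal RNA, 1 of 15 tested genes rose and 3 fell, with a median of -0.25. The background was 13.7% of all genes tested that rose and 11.6% that fell. The line Rn45s, the precursor of ribosomal RNA, stood at 958 to 1983 CPM in the wild-type, 352 to 788 in the heterozygous and 85.8 to 352 in the homozygous libraries. Its log2 fold change in homozygous mice was -2.81 (adjusted p = 8e-06). Its part in the ribosomal protein genes was not tested. In homozygous replicates 1, 2, 4 and 5 the Rn45s line stood at 316, 352, 95.6 and 85.8 CPM. Synthesis of the precursor and removal of ribosomal RNA during library preparation cannot be told apart in this line. Rrn3, a factor that brings RNA polymerase I to its promoter, fell by 0.75 (adjusted p = 0.00389).

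Translation of ribosomal proteins is controlled by mTOR. Of 16 tested genes of that list 1 rose and 2 fell, with a median of -0.03. Beside this list and the p53 list below, 13.7% of all genes tested rose and 11.6% fell. Rps6kb1, which encodes S6 kinase 1, rose by 0.91 (adjusted p = 0.000986), and Rps6kb2, which encodes S6 kinase 2, fell by 1.45 (adjusted p = 0.004). Tsc2, an inhibitor of mTOR, fell by 0.62 (adjusted p = 0.014). Free Rpl5 and Rpl11 with 5S rRNA inhibit MDM2 and so stabilise p53. Of 14 tested genes of this route and p53 targets, 2 rose and 2 fell, with a median of 0.03: Ccng1 rose by 0.85 and Mdm4 by 0.72, while Btg2 fell by 1.69 and Sesn2 by 0.92. Of the other cytosolic ribosome proteins outside the naming rule, Gnb2l1 (the scaffold Rack1) had a log2 fold change of 0.18 (adjusted p = 0.55) and Rpl36al one of -0.50 (adjusted p = 0.328).

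Markers of cell types were set beside these values. Of 12 tested markers of hypothalamic neurons none rose and 3 fell between homozygous and wild-type mice (Trh by 1.08, Hdc by 1.11 and Pomc by 1.12), with a median of -0.45, against 11.6% of all genes that fell. Their sums, led by Pmch, overlapped at 1008 to 1431 and 1031 to 1418 CPM. Of 6 tested endothelium and pericyte markers 2 fell (Vtn by 1.47 and Pdgfrb by 1.32) and none rose, with a median of -0.66, and the 7 markers summed to 139 to 169.7 CPM in the wild-type, 124 to 143 in the heterozygous and 80.2 to 119 in the homozygous libraries. Beta-s, the 1 blood marker tested, fell by 1.03. Of 7 tested microglia markers none was called by edgeR, and their sums overlapped at 262 to 299 and 254 to 306 CPM. Astrocyte markers (7 tested) summed to 4246 to 5424 and 5139 to 6644 CPM with 2 rises and 1 fall. Oligodendrocyte markers (8 tested) summed to 3145 to 3955 and 2033 to 3333 CPM with 1 of each. Of all genes tested, 13.7% rose. The part of cell composition in the ribosomal protein genes was not tested. On chromosome 5, where Wfs1 lies, the nearest ribosomal protein gene is Rpl9 at 28.4 Mb, and Rpl5 lies 70.9 Mb away.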

How the data were processed

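Hypothalamus RNA of 12 mice was sequenced as pairs of 75 and 35 bases, per the labels' protocols, and placed on the mouse genome (mm10, per the submitters' processing notes). Which aligner, counter, annotation and strand setting the authors used is not given in the sources used here. Raw counts per gene symbol are what the authors deposited. The members and lists were chosen with earlier results of these data known. Tests used edgeR 4.0.16 (R 4.3.3) with TMM factors from 0.908 to 1.08, the filterByExpr filter on low counts, 1 quasi-likelihood fit of all 12 libraries on genotype, and Benjamini-Hochberg adjustment over 10737 genes. The common biological coefficient of variation was 0.148. The edgeR fit was also run on simulated counts, with changes only in genes above a limit on mean counts and no trend with base composition. Recovery of changes in genes of lower counts, such as Rps21, was not tested. CPM are TMM-scaled. Named were genes called, the 6 most positive and 6 most negative fold changes, the 6 highest and 6 lowest levels per kilobase, paralogs, members of fixed roles, untested members and up to 4 called genes per list. Some members this rule covers are not reported here by name. Rpl32 in heterozygous mice, Rpl13a, Fam69a, Eif3f and the named cell type markers were named after their values were seen. Alternatives were RLE factors, DESeq2 1.42.0, other filters, fewer libraries, a replicate block, a GC and length offset and added pseudogene lines.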

Additional observations from a re-analysis of the deposited data

How the results depend on the processing

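Without any 1 library, 4 to 6 ribosomal protein genes were called between homozygous and wild-type mice, 0 to 0 between heterozygous and wild-type, and 0 to 2 between homozygous and heterozygous. Same-numbered libraries share only a number: their deviations correlated between -0.27 and 0.34, other pairs between -0.22 and 0.24. With the number as a replicate block, 2 genes were called between homozygous and wild-type mice (Rpl15 and Rpl27a; Rpl5 had adjusted p = 0.0637 and Rps21 0.161) and 0 between homozygous and heterozygous. The count between homozygous and heterozygous was 2 with no filter on low counts, 0 with only these 2 genotypes fitted, and 0 without both homozygous replicates 4 and 5. Without those 2 libraries 1 gene, Rpl27a, was called between heterozygous and wild-type mice, and the homozygous changes of Rpl15 and Rpl27a were 0.87 and 0.61. With only wild-type and homozygous libraries fitted, Rps21 did not pass the filter and the other 3 were called. Rpl4 was called with no filter (adjusted p = 0.0467) and without homozygous replicate 1 (0.0332) or 2 (0.0275), and Rps15 without wild-type replicate 1 (0.0402). With at least 1 CPM in 4 libraries as the filter, 54 members were tested and the same 4 called. Of 537 values of single members under alternatives, 515 kept direction and call, 15 changed sign with no call in either fit, 5 gained and 2 lost a call, and no called value reversed. Over all genes, 2723 were called between homozygous and wild-type mice, 1308 with the block, 1344 without homozygous replicates 4 and 5, and 1856 to 3076 without any 1 library. Between heterozygous and wild-type mice 64 were called, 222 with DESeq2, 280 with no filter, 382 with only these genotypes, 163 with the block and also with the GC and length offset, 430 without homozygous replicates 4 and 5, and 3 to 218 without any 1 library. Between homozygous and heterozygous mice 236 were called, 429 with DESeq2, 727 with no filter, 44 with only these genotypes, 33 with the block, 1 without homozygous replicates 4 and 5, and 6 to 867 without any 1 library. The cause was not tested for any of these. The median change of the set was 0.0028 to 0.31 (homozygous) and 0.12 to 0.29 (heterozygous) without any 1 library, and 0.19 and 0.34 with the block. At these counts 57 of 83 members could not be tested.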
